A study of Mus musculus with 2 samples.

Results

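The anaphase-promoting complex or cyclosome (APC/C) is represented here by 10 genes, taken by symbol from the 27998 genes listed for both libraries. They are the activators Cdc20 and Fzr1, the inhibitor Fbxo5, the ubiquitin-conjugating enzymes Ube2c and Ube2s, the core subunits Cdc27, Cdc16, Anapc5 and Anapc11, and the substrate Pttg1. All 10 had UMIs (unique molecular identifiers, 1 per captured transcript) in both libraries, and none was lost to a filter on low values. The libraries are droplet-based 3′ single-cell RNA libraries of peripheral mouse retina at postnatal day 8, with 1 library per genotype. The group DKO carried the α-Cre transgene, which is active in the peripheral retina, with floxed Rb (Rbf/f) and a p107-/- background, and is labelled tumor-prone. The group DKO_Skp2het had those same alleles and in addition Skp2+/-, and is labelled tumor-resistant. Loss of p107 and Cre-driven loss of Rb are thus shared by both groups, no retina with intact Rb and p107 was compared, and cells that never expressed Cre keep their Rb. Whether several animals were pooled is not given in the sources used here. With 1 library each, a difference between the libraries cannot be told apart from a difference between 2 preparations, and no test was made.

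APC/C is a ubiquitin ligase that marks cell cycle proteins for destruction by the proteasome. Cdc20 activates it in mitosis, when it removes securin (encoded by Pttg1) and cyclin B so that sister chromatids separate. Cdh1, the product of Fzr1, takes over as activator at mitotic exit and through G1. Emi1, the product of Fbxo5, blocks the complex from the G1/S transition until mitosis, which lets cyclin A, geminin and other substrates accumulate. UbcH10, encoded by Ube2c, starts ubiquitin chains on substrates and Ube2s lengthens them. The complex opposes Skp2, the substrate receptor of a second ligase that degrades the cyclin-dependent kinase inhibitor p27, because Cdh1-bound APC/C marks Skp2 itself for destruction. Rb binds both Skp2 and Cdh1-bound APC/C and so brings them together, and the libraries compared here lack Rb in the Cre area. Only transcripts were measured, not the activity of either ligase.

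DKO held 24413761 UMIs in 3621 barcodes and DKO_Skp2het 25766024 in 5196, of which 3515 and 4978 cells were kept. The median kept cell had 4861 UMIs in DKO and 3800 in DKO_Skp2het, and 1897 of the kept DKO_Skp2het cells (38.1%) lay below the shallowest DKO cell at 3420 UMIs. The libraries shared 30 barcodes. Cell cycle position was read from 2 gene lists that hold no member, after every cell was thinned at random to 1500 UMIs. Cells with under 5 UMIs of the S and G2M lists were set apart as cycle-low. The others were split into quartiles of the G2M share of these UMIs over both libraries, with borders at 50%, 64% and 82.4%. Quartile 1 thus has the lowest share of G2 and mitotic transcripts among list UMIs and quartile 4 the highest. At the border, 208 DKO and 365 DKO_Skp2het cells held 4 or 5 list UMIs. Cells with cycle transcripts made up 90.2% of DKO (exact 95% Clopper-Pearson interval 89.2 to 91.1) and 87.0% of DKO_Skp2het (86.0 to 87.9). Microglia-like cells, immune cells that arise outside the retinal lineage, were cycle-low in 93.1% and 85.4% of cases. Levels are UMIs of a gene per 1000000 UMIs of the cells summed (CPM), with exact 95% Poisson intervals where shown, and all intervals cover counting error only. The summed S list measured 5763, 5790, 5654 and 2988 CPM in quartiles 1 to 4 of DKO. In DKO_Skp2het it measured 6324, 6154, 5519 and 2634 CPM, so quartiles 1 to 3 differed less in S transcripts than in their G2M share.

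Cdc20 and Ube2c had the steepest profiles of the 10 genes along the cycle. Their promoters are shown because cell cycle genes expressed in G2 and mitosis are known to carry a CHR element, TTTGAA, often beside CCAAT boxes bound by NF-Y. The lines give RefSeq sequence of GRCm38.p6, 248 bases on the gene's strand up to 3 bases before the RefSeq start, at chr4:118437346-118437593 (minus strand) and chr2:164769679-164769926 (plus strand). Capitals mark TTTGAA and CCAAT on either strand.
Cdc20: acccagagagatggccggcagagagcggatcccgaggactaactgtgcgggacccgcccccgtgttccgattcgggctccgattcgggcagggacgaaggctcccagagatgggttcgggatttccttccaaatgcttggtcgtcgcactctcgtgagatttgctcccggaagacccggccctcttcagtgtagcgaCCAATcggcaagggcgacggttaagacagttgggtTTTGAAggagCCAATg
Ube2c: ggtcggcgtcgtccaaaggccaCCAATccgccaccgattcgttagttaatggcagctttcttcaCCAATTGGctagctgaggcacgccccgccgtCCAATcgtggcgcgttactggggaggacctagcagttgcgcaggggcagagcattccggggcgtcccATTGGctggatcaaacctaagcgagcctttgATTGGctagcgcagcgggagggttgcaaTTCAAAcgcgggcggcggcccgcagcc
Positions are counted from the RefSeq start, with -1 the base before it. Cdc20 had TTTGAA at -18 and CCAAT at -53 and -8. Ube2c had TTTGAA at -29 on the opposite strand and 6 CCAAT matches between -228 and -57, of which those at -186 and -183 overlap. The GENCODE starts, at 118437352 for Cdc20 and 164769898 for Ube2c, lie within the sequences shown. Counted from these starts, the Cdc20 CCAAT at -8 and the Ube2c TTTGAA at -29 lie inside the transcript. All 10 members matched the promoter table, with 11 windows of 300 bases (250 before and 50 after the start). Fbxo5 also had TTTGAA, at position 4 after its RefSeq start, and it had 3 CCAAT matches at -93, -55 and -25. Fzr1 had 1 CCAAT match, Cdc27 and Anapc5 had 2 each, each of the 2 Anapc11 windows had 1, and Ube2s and Cdc16 had neither motif. The Pttg1 window also held neither, but its GENCODE start lies 20 bases upstream of that window. Of 32851 mouse promoters of the same length, 17.9% held TTTGAA, 37.4% held CCAAT, and 2.09% held TTTGAA with 2 or more CCAAT. None of the 11 windows held the E2F words TTTCCCGC, TTTGGCGC, TTTCGCGC or TTTGCCGC, which 2.26% of all promoters held. These matches describe letters in a window and say nothing of binding.

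Cdc20, the mitotic activator (ENSMUSG00000006398, chromosome 4, 118432901 to 118437352, minus strand, GRCm38), was lowest in cycle-low cells and quartile 1 and highest in quartile 4. In DKO it measured 11.9 CPM in cycle-low cells and 12.3, 32.2, 86.3 and 424 CPM in quartiles 1 to 4. In DKO_Skp2het it measured 8.32 CPM in cycle-low cells and 11.1, 22.5, 89.3 and 517 CPM along the quartiles. Both libraries thus climbed in the same order, with no overlap of intervals between quartiles 2, 3 and 4. Quartile 4 exceeded quartile 1 by 34.4-fold in DKO (interval 25.1 to 48.5) and 46.6-fold in DKO_Skp2het (35.8 to 61.7). Of all Cdc20 UMIs, 75.2% and 80.0% lay in quartile 4. In thinned data, 38.3% of DKO and 41.4% of DKO_Skp2het quartile 4 cells had a Cdc20 UMI. Of microglia-like cells thinned in the same way, 0 of 29 and 0 of 41 had one (exact upper 95% limits for thinned cells 11.9% and 8.60%), although before thinning they held 3 and 1 Cdc20 UMIs. Their median depths were 9600 and 7519 UMIs before thinning, against 4940 and 4419 in quartile 4.

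Fzr1, which encodes Cdh1 (ENSMUSG00000020235, chromosome 10, 81366222 to 81378516, minus strand), had a shallower profile and was also measured outside the cycle. DKO levels were 41.6 CPM in cycle-low cells and 32.5, 36.3, 52.7 and 109 CPM in quartiles 1 to 4. DKO_Skp2het levels were 36.2 CPM in cycle-low cells and 23.0, 33.4, 54.4 and 115 CPM. The lowest level was in quartile 1, which has the lowest G2M share, and the highest in quartile 4, by 3.36-fold (2.73 to 4.18) and 5.00-fold (4.10 to 6.15). Cycle-low cells lay above quartile 1 in both libraries, but in DKO the intervals of these positions overlap. The Cdh1 transcript therefore had its maximum in the same quartile as Cdc20, although Cdh1 acts after it.

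Fbxo5, the Emi1 inhibitor gene (ENSMUSG00000019773, chromosome 10, 5799160 to 5805600, minus strand), climbed to quartile 3 and was lower again in quartile 4. DKO levels were 9.91 CPM in cycle-low cells and 64.4, 163, 289 and 207 CPM in quartiles 1 to 4. DKO_Skp2het levels were 8.61 CPM in cycle-low cells and 79.1, 182, 344 and 229 CPM. Quartile 3, where S and G2M transcripts are mixed, held 46.94% of Fbxo5 UMIs in DKO and 40.96% in DKO_Skp2het. That peak rested on few cells. Of all Fbxo5 UMIs, 29.3% in DKO and 27.9% in DKO_Skp2het came from clusters 12 and 25, which no marker list named and which made up 3.47% and 2.59% of the cells. Without these clusters, quartiles 3 and 4 measured 187 and 202 CPM in DKO and 223 and 219 CPM in DKO_Skp2het, and their intervals overlap within each library. The fold of quartile 4 over quartile 1 with all cells was 3.22 (2.77 to 3.75) and 2.90 (2.59 to 3.25).

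Cluster 12 (105 DKO and 110 DKO_Skp2het cells) measured 954 CPM of Fbxo5 in DKO (899 to 1012) and 1266 CPM in DKO_Skp2het (1190 to 1345). The next highest of the 16 clusters with at least 50 cells per library was cluster 3, at 311 and 334 CPM, and the median cluster had 87.8 and 78.5 CPM. The much smaller cluster 25, of 17 and 19 cells, measured 822 and 902 CPM. Cluster 12 was led by Txnip, Myc and Gadd45b, and 66.7% and 64.5% of its cells lay in quartile 3. In clusters 12 and 25 together, Cdkn1a, which encodes the kinase inhibitor p21, was at 2818 CPM (DKO) and 3169 CPM (DKO_Skp2het), while the other quartile 3 cells had 550 and 538 CPM. Mdm2, a p53 target that degrades p53, measured 457 and 549 CPM there against 74.6 and 74.5 CPM. Ccne2, cyclin E2, measured 537 and 506 CPM against 109 and 106 CPM. Ccnb1, cyclin B1, measured 228 and 311 CPM against 87.1 and 73.1 CPM. Skp2 was high there as well, at 215 and 129 CPM against 90.0 and 62.4 CPM. Since these clusters were singled out for their Fbxo5 level and were made from the same cells, these values describe them and test nothing. Their median depth of 7988 and 5810 UMIs in cluster 12 lay above that of all kept cells, and the part of depth or of unremoved doublets in these values was not tested. Cdc16 was also highest in cluster 12 among the 16 clusters, at 125 and 143 CPM against cluster medians of 62.7 and 58.5 CPM.

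Ube2c, the chain-initiating enzyme (ENSMUSG00000001403, chromosome 2, 164769898 to 164778822, plus strand), followed Cdc20. DKO levels were 20.6 CPM in cycle-low cells and 33.5, 88.4, 272 and 1298 CPM in quartiles 1 to 4. DKO_Skp2het levels were 21.1 CPM in cycle-low cells and 23.4, 53.6, 241 and 1403 CPM. Quartile 4 exceeded quartile 1 by 38.8-fold (32.0 to 47.4) and 60.0-fold (50.1 to 72.5), and held 75.6% and 80.8% of the UMIs. Ube2s, the chain-elongating enzyme (ENSMUSG00000060860, chromosome 7, 4794546 to 4812590, minus strand), was measured in every position. Its DKO levels were 365 CPM in cycle-low cells and 863, 1157, 1863 and 2622 CPM in quartiles 1 to 4, and its DKO_Skp2het levels 372, 864, 1181, 1798 and 2773 CPM. The fold of quartile 4 over quartile 1 was 3.04 (2.92 to 3.17) and 3.21 (3.10 to 3.32). Ube2s overlaps the ribosomal protein gene Rpl28 on the opposite strand, and whether counting used strand is not given in the sources used here. Rpl28 did not share the profile, with 1966 and 1921 CPM in quartile 1 and 1691 and 1540 CPM in quartile 4. Cdc20, Fzr1 and Ube2c also overlap opposite-strand genes (Elovl1, Mfsd12 and Tnnc2), which had 383, 569 and 8 UMIs over both libraries.

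The core subunits varied less along the cycle, with Cdc27 as the exception. Cdc27 (Apc3, ENSMUSG00000020687, chromosome 11, 104502745 to 104550620, minus strand), which receives the activators, measured 13.9 CPM in quartile 1 and 40.4 CPM in quartile 4 of DKO, a fold of 2.91 (2.10 to 4.11). In DKO_Skp2het the values were 16.8 and 53.2 CPM, a fold of 3.18 (2.48 to 4.10). Cdc16 (Apc6, ENSMUSG00000038416, chromosome 8, 13757676 to 13781938, plus strand), a scaffold subunit, lay between 44.4 and 73.8 CPM over all DKO positions and between 44.0 and 76.2 CPM in DKO_Skp2het. Its fold of quartile 4 over quartile 1 was 1.07 (0.902 to 1.28) and 1.13 (0.964 to 1.33). Anapc5 (ENSMUSG00000029472, chromosome 5, 122787459 to 122821339, minus strand), another scaffold subunit, was low in cycle-low cells, at 195 CPM in each library. It measured 467 and 454 CPM in quartiles 1 and 2 of DKO and 498 and 527 CPM in those of DKO_Skp2het, and was lower in quartile 4, at 395 and 404 CPM. Anapc11 (ENSMUSG00000025135, chromosome 11, 120598421 to 120608198, plus strand), the RING subunit that binds the E2 enzymes, was flat within the quartiles, at 308 to 328 CPM in DKO and 338 to 365 CPM in DKO_Skp2het. Of the other 10 subunit genes, 1 was over 2-fold higher in quartile 4 than in quartile 1 in each library.

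Pttg1, which encodes securin (ENSMUSG00000020415, chromosome 11, 43420250 to 43426251, minus strand), is the substrate whose loss frees separase. Its DKO levels were 21.4 CPM in cycle-low cells and 42.3, 76.6, 172 and 498 CPM in quartiles 1 to 4. Its DKO_Skp2het levels were 20.5 CPM in cycle-low cells and 34.5, 62.2, 160 and 585 CPM. The fold of quartile 4 over quartile 1 was 11.8 (9.90 to 14.1) and 17.0 (14.6 to 19.8), and quartile 4 held 62.6% and 68.3% of the UMIs. Counted together, 7 of the 10 members were over 2-fold higher in quartile 4 than in quartile 1 in both libraries: Cdc20, Fzr1, Fbxo5, Ube2c, Ube2s, Cdc27 and Pttg1. Of all genes tested, 3.51% were in DKO and 3.68% in DKO_Skp2het. The members' median log2 difference was 1.60 and 1.58, against 0.00 over all genes in each library. The members were picked for their part in the cycle, so nothing is read from this contrast with all genes.

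**Figure D1:**
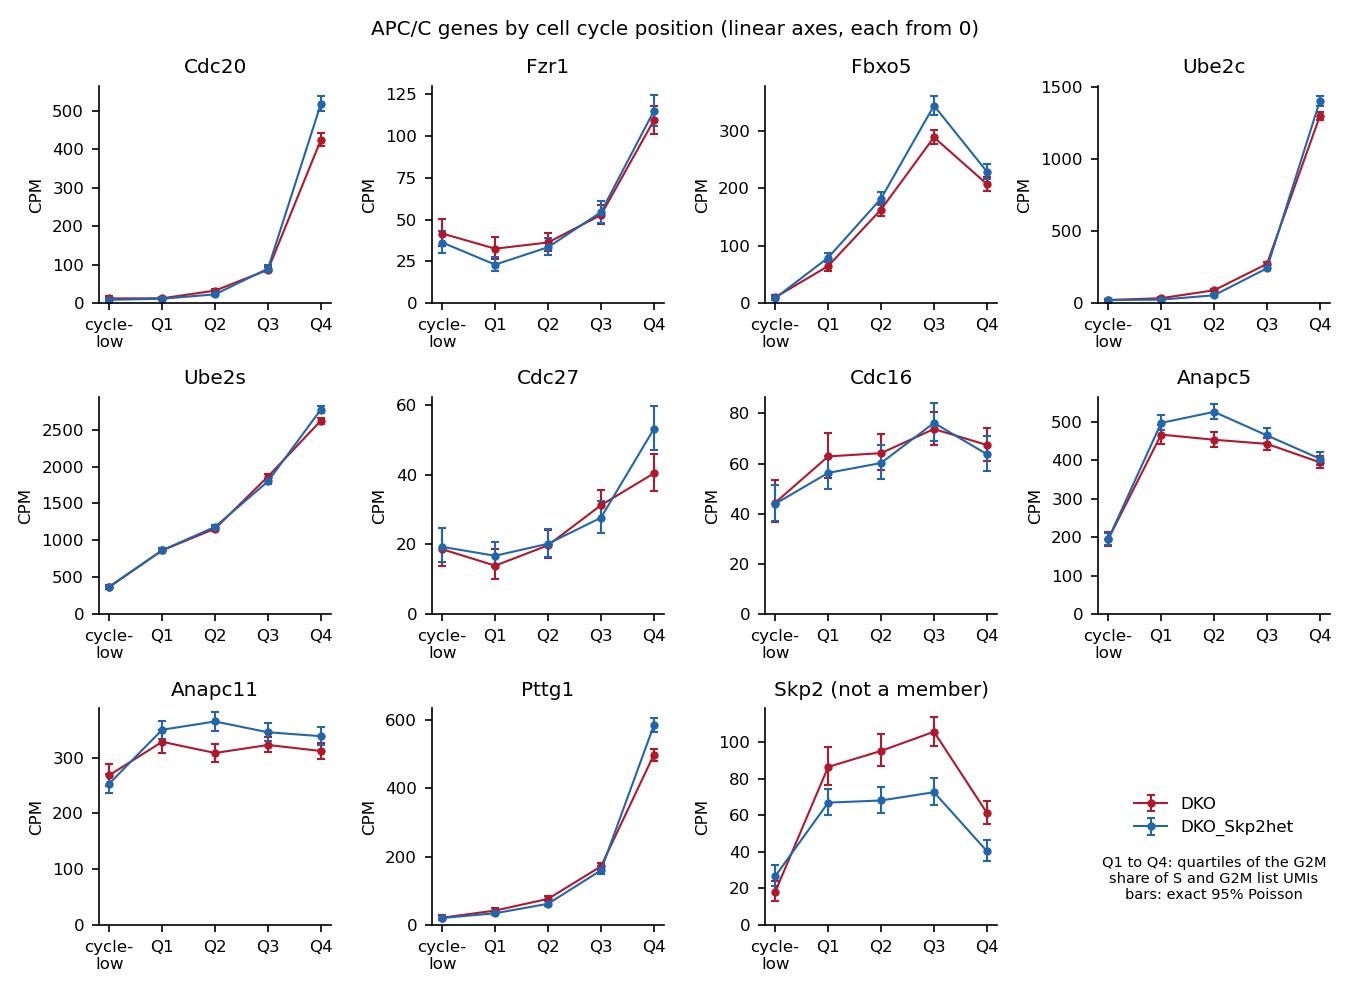
Level of each member and of Skp2 (vertical, CPM on linear axes from 0) in cycle-low cells and in quartiles 1 to 4 of the G2M share (horizontal), with DKO in red and DKO_Skp2het in blue. Points are sums over the cells of 1 library, and bars are exact 95% Poisson intervals. Cdc20, Ube2c and Pttg1 reach their maximum in quartile 4, Fbxo5 and Skp2 in quartile 3, and Anapc11 stays between 308 and 365 CPM over the quartiles.

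Within quartile 4, cells were split into tertiles, 3 parts of like size over both libraries, by the share of late mitosis transcripts among late mitosis and G2 list UMIs, with borders at 31.7% and 42.5%. This split was chosen after the data had been seen. The activator Cdc20 measured 168, 404 and 684 CPM from the lowest to the highest tertile in DKO, and 193, 460 and 832 CPM in DKO_Skp2het. Ube2c measured 650, 1358 and 1860 CPM in DKO and 656, 1323 and 2090 CPM in DKO_Skp2het. Pttg1 measured 295, 536 and 659 CPM in DKO and 331, 586 and 794 CPM in DKO_Skp2het. All 3 genes were thus highest where late mitotic transcripts were most abundant. Fzr1 was 75.4, 119 and 133 CPM in DKO and 95.3, 117 and 130 CPM in DKO_Skp2het, where the intervals of the upper 2 tertiles overlap. Fbxo5 was lower in the highest tertile, with 220, 233 and 173 CPM in DKO and 255, 253 and 190 CPM in DKO_Skp2het, while the intervals of the lower 2 tertiles overlap in each library. Skp2 measured 76.9, 64.6 and 44.0 CPM in DKO and 50.9, 39.6 and 32.4 CPM in DKO_Skp2het, and was lowest where Cdc20 was highest.

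**Figure D2:**
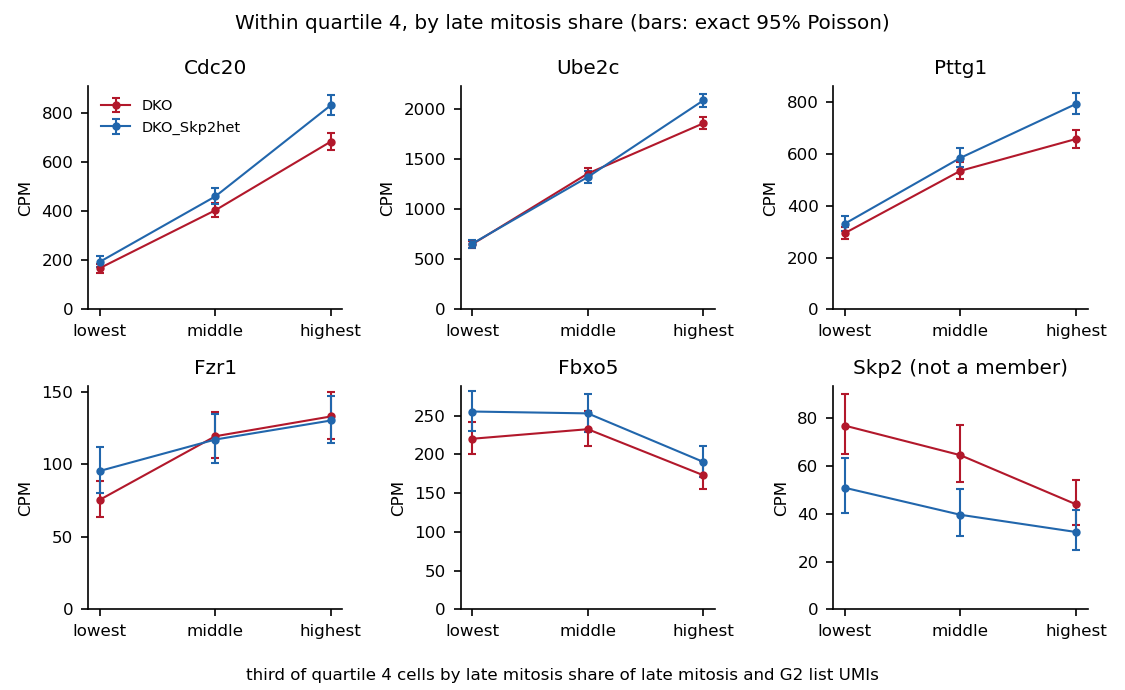
Level (vertical, CPM on linear axes from 0) of 5 members and Skp2 in the tertiles of quartile 4 cells with the lowest, middle and highest late mitosis share (horizontal), with DKO in red and DKO_Skp2het in blue. Bars are exact 95% Poisson intervals. Cdc20 goes from 168 to 684 CPM in DKO and from 193 to 832 CPM in DKO_Skp2het, while Fbxo5 and Skp2 are lowest in the highest tertile.

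The same quartile was also divided by the number of Cdc20 UMIs a thinned cell held: 0 (569 DKO and 560 DKO_Skp2het cells), 1 (209 and 220) or at least 2 (144 and 175). Ube2c in these 3 sets measured 962, 1577 and 2299 CPM in DKO and 1039, 1617 and 2229 CPM in DKO_Skp2het. Pttg1 measured 384, 576 and 861 CPM in DKO and 420, 647 and 997 CPM in DKO_Skp2het. Fbxo5 measured 210, 232 and 166 CPM in DKO and 227, 261 and 199 CPM in DKO_Skp2het. Fbxo5 was thus lowest in cells with at least 2 Cdc20 UMIs, while the intervals of the sets with 0 and 1 overlap in each library. In DKO_Skp2het the intervals of the sets with 0 (210 to 245) and at least 2 (172 to 229) overlap as well. Anapc5, a core subunit, measured 408, 402 and 332 CPM in DKO and 427, 421 and 317 CPM in DKO_Skp2het.

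Over all kept cells no member differed by over 1.25-fold between the libraries in either direction, while 3.04% of all genes were higher in DKO_Skp2het by over that fold and 2.15% were lower. Calls past a fold use the log2 difference, DKO_Skp2het minus DKO, of CPM plus a pseudocount of 5, which understates differences of low genes. The members' median log2 difference was -0.06, beside 0.02 for all genes, with 3 members above 0 and 7 below. Of all genes, 56.1% were above 0. The ratio of CPM, DKO_Skp2het over DKO, was 0.98 for Cdc20 (0.93 to 1.03), from 142 CPM in DKO and 138 CPM in DKO_Skp2het. For Ube2c it was 0.86 (0.84 to 0.89), from 432 and 372 CPM, for Pttg1 0.92, from 200 and 183 CPM, and for Fzr1 0.90 (0.83 to 0.97), from 59.5 and 53.5 CPM. Fbxo5 was at 0.99, Ube2s at 0.92, Cdc27 at 1.02, Cdc16 at 0.94, Anapc5 at 1.06 and Anapc11 at 1.08. Skp2, the gene with 1 copy lost in DKO_Skp2het, was at 0.71 (0.66 to 0.76), from 80.4 and 57.1 CPM, so it was lower in the library labelled Skp2+/-. Skp2 lies on chromosome 15, 9111985 to 9155425, minus strand.

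The libraries also differed in how their cells were spread along the cycle. Quartile 4 held 26.2% of DKO and 19.2% of DKO_Skp2het cells, and quartile 1 held 16.98% and 25.03%. When each library's position levels were weighted by the pooled shares of the 5 positions, an alternative chosen after the data had been seen, the ratios became 1.15 for Cdc20, 1.15 for Fbxo5, 1.02 for Ube2c, 1.06 for Pttg1 and 0.97 for Fzr1. Skp2 stayed low, at 0.73. The ratios also differed when shallow cells were left out and when cells were thinned. With both libraries held to cells of at least 3420 UMIs, which leaves out 1897 DKO_Skp2het cells and 0 DKO cells, Cdc20 was at 1.14, Fbxo5 at 1.09, Ube2c at 1.03 and Pttg1 at 1.02. With every cell thinned to 1500 UMIs these 4 genes were at 0.85, 0.90, 0.70 and 0.78, and Ube2c and Pttg1 then differed by over 1.25-fold as plain ratios. The part of depth and of the mix of cells in these shifts was not tested. Over these settings Cdc20, Fbxo5, Ube2c, Ube2s, Pttg1 and Cdc27 each lay on both sides of 1, with Ube2s at 1.02 under pooled position shares and Cdc27 at 0.86 after thinning. Over all kept cells, Fzr1 and Cdc16 stayed below 1 and Anapc5 and Anapc11 above it. In cells with cycle transcripts alone, Fzr1 was at 0.91 (0.84 to 0.99), but at 1.01 with cells of at least 3420 UMIs.

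With quartiles drawn over both libraries, Cdc20, Ube2c and Pttg1 were lower in DKO_Skp2het in quartile 2 and higher in quartile 4. In quartile 2, Cdc20 had a ratio of 0.70, Ube2c 0.61 and Pttg1 0.81, and the first 2 are the members past 1.25-fold there (7.52% of all genes were past it upward and 7.39% downward). With positions read from all UMIs instead of thinned cells, the quartile 2 ratios were 1.19 for Cdc20, 0.83 for Ube2c and 1.00 for Pttg1, so this difference did not keep its direction for Cdc20 and Pttg1. In quartile 4, Cdc20 had 1.22 (1.16 to 1.29), Pttg1 1.17 (1.11 to 1.23), Ube2c 1.08 (1.05 to 1.12), Fbxo5 1.11 and Fzr1 1.05 (0.94 to 1.18). Cdc27, at 1.32 (1.10 to 1.57), was the 1 member past 1.25-fold there, where 6.67% of all genes were higher and 5.17% lower by that much. In quartile 4, 9 of 10 members were above 0 with a median log2 difference of 0.11, beside 56.1% of all genes above 0 and a median of 0.03. In quartile 3 no member was past 1.25-fold (7.56% of genes higher, 4.86% lower). In quartile 1, Fzr1 (0.71) and Ube2c (0.70) were lower by over 1.25-fold, where 11.3% of genes were higher and 10.8% lower. Fbxo5 was higher in DKO_Skp2het in all 4 quartiles, with ratios of 1.23, 1.12, 1.19 and 1.11, but with quartiles drawn within each library its quartile 2 ratio was 0.76. Skp2 was lower in all 4 quartiles drawn over both libraries, at 0.77, 0.72, 0.69 and 0.66. In cycle-low cells 1 member was past the fold, Cdc20 at 0.70 (0.40 to 1.21), or 1.12 when cells with at least 3 list UMIs counted as cycling, where 8.19% of genes were higher and 9.13% lower, and Skp2 was at 1.47 (1.02 to 2.14).

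These position ratios depend on where the borders lie. The summed G2M list itself measured 24792 CPM in quartile 4 of DKO and 26613 CPM of DKO_Skp2het, so the borders did not equalise the libraries within that quartile. When quartiles were drawn within each library instead, the quartile 4 ratios were 0.98 for Cdc20, 0.87 for Ube2c, 0.98 for Ube2s and 0.97 for Pttg1, and the quartile 2 ratios were 0.41 for Cdc20 and 0.38 for Ube2c. In the highest late mitosis tertile of quartile 4 the ratios were 1.22 for Cdc20, 1.12 for Ube2c, 1.21 for Pttg1 and 1.43 for Cdc27, while Ccnb1, cyclin B1, which is in the list that made the tertiles, was at 1.13. The steep rank order along the cycle was seen in each library, while the difference between the libraries at the mitotic end did not keep its direction under both ways of drawing the quartiles.

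**Figure D3:**
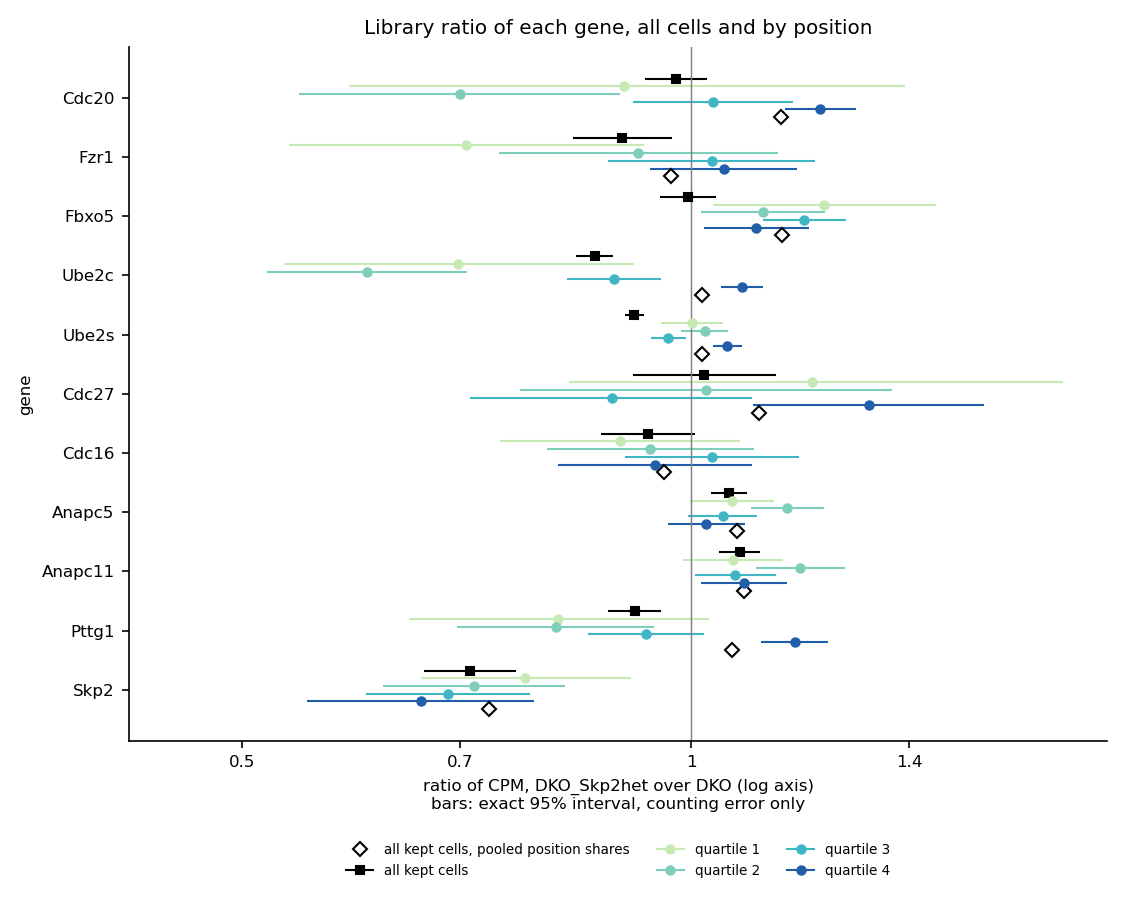
Ratio of CPM, DKO_Skp2het over DKO (horizontal, log axis), for each member and Skp2 (vertical), over all kept cells (black squares), in quartiles 1 to 4 (green to blue circles) and with pooled position shares (open diamonds, no interval). Bars are exact 95% intervals from counting error. Cdc20 lies at 0.98 over all cells and 1.22 in quartile 4, and Skp2 lies below 1 at every point shown.

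Cells were clustered without the members, the cycle lists and the APC/C pathway lists, and 15 of 30 clusters were named from marker genes. The clusters still differed in cycle position, and the part of position in their levels was not tested. In neurogenic progenitor-like cells (cluster 3), the dividing cells that go on to make neurons, 66.8% of DKO and 71.2% of DKO_Skp2het cells lay in quartile 4. The members of the mitotic group were high there: Cdc20 measured 372 and 481 CPM, Ube2c 1294 and 1261 CPM, Pttg1 552 and 618 CPM, and Fzr1 110 and 104 CPM. This was not particular to cluster 3. The unnamed cluster 2, nearest to progenitors by its markers, had 70.4% and 66.4% of its cells in quartile 4. It measured 308 and 312 CPM of Cdc20, 1176 and 1289 CPM of Ube2c and 417 and 431 CPM of Pttg1. Its Fzr1, at 121 and 142 CPM, was the highest of the 16 clusters with at least 50 cells per library. Cluster 11, which stayed unnamed, was led by Cdc20 itself together with Ccnb1 and Plk1 and measured 1213 and 1210 CPM of Cdc20, with Fbxo5 at 96.2 and 62.4 CPM. Müller glia-like cells (clusters 0 and 16), the supporting glia of the retina, measured 14.9 and 11.6 CPM of Cdc20 and 39.1 and 29.4 CPM of Ube2c. Of them, 7.69% and 9.13% were cycle-low and 2.16% and 0.76% lay in quartile 4. This class joins unlike clusters, as cycle-low cells made up 0.26% and 0.35% of cluster 0 but 81.6% and 72.5% of cluster 16. At a clustering resolution of 0.5 the class held 35 and 72 cells instead of 416 and 657. Fbxo5 in the Müller glia-like cells of clusters 0 and 16 measured 72.5 and 85.1 CPM. The unnamed cluster 5, nearest to neurogenic progenitors by its markers, had 3.47% and 2.86% of its cells in quartile 4. Its Cdc20 measured 17.2 and 29.0 CPM.

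Neuron classes that carry differentiation markers had low Cdc20 levels as well. Bipolar-like cells (clusters 13 and 15) measured 14.6 CPM of Cdc20 in DKO and 9.63 CPM in DKO_Skp2het, amacrine-like cells (14 and 22) 28.8 and 13.9 CPM, and rod-like cells (9, 20 and 26) 32.4 and 27.2 CPM. These values rest on 8 to 47 UMIs each, and the interval of the ratio between the libraries includes 1 in each of these classes. Anapc11, the RING subunit, measured 223 and 236 CPM in rod-like cells and 415 and 419 CPM in Müller glia-like cells. Anapc5 measured 207 and 182 CPM in rod-like cells and 524 and 540 CPM in Müller glia-like cells. Rod-like cells in quartile 4, 27 in DKO and 23 in DKO_Skp2het, measured 501 and 451 CPM of Ube2c and 115 and 139 CPM of Cdc20. The part of unremoved doublets in these values was not tested.

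Between the libraries, the named types went in different directions for Cdc20 and Pttg1. Ube2c was below 1 in each named class with at least 50 cells per library. It was at 0.97 (0.92 to 1.03) in neurogenic progenitor-like and 0.75 (0.55 to 1.04) in Müller glia-like cells. In bipolar-like cells Ube2c was at 0.58 (0.33 to 0.98), and in amacrine-like cells at 0.34 (0.18 to 0.62), from 55 and 15 UMIs. In neurogenic progenitor-like cells Cdc20 had a ratio of 1.29 (1.16 to 1.44) and Pttg1 1.12 (1.02 to 1.22), and within their quartile 4 cells alone Cdc20 had 1.24 (1.11 to 1.38). Clusters 2 and 11, also with most of their cells in quartile 4, did not share these higher ratios. Cdc20 was at 1.01 (0.92 to 1.12) in cluster 2 and 1.00 (0.89 to 1.12) in cluster 11. Pttg1 there was at 1.03 and 1.00, and Ube2c at 1.10 (1.04 to 1.15) and 0.73 (0.66 to 0.80). In immature neuron-like cells (clusters 6 and 7), Cdc20 was at 0.59 (0.47 to 0.73), Ube2c at 0.56 (0.49 to 0.65) and Pttg1 at 0.66 (0.54 to 0.81). Within quartile 4 of the immature neuron-like class, with 41 and 47 cells, Cdc20 was at 0.55 (0.43 to 0.71) and Ube2c at 0.49 (0.41 to 0.58). In cluster 7, Cdc20 had 23 UMIs in DKO and 3 in DKO_Skp2het, a ratio of 0.13 (0.02 to 0.42). In rod-like cells Pttg1 was at 0.40 (0.28 to 0.57), Ube2c at 0.56 (0.43 to 0.72) and Fbxo5 at 0.70 (0.50 to 0.98). Several of these values moved with how classes were drawn. At a clustering resolution of 0.5, Cdc20 was at 0.16 and Ube2c at 0.31 in immature neuron-like cells. That class then held 159 and 229 cells instead of 433 and 512, so these ratios come from a smaller set of cells. At that resolution the neurogenic progenitor-like class held 525 and 545 cells instead of 331 and 416. Over all settings, 10 ratios of that class moved beyond counting error and 30 did not. In rod-like cells Ube2c was at 0.84 with doublets kept, and after thinning Pttg1 was at 0.21 and Fbxo5 at 0.43. Cycle-low cells made up 10.6% of DKO and 27.5% of DKO_Skp2het immature neuron-like cells, and 31.3% and 49.5% of rod-like cells. The median depth in these classes was 4578 and 3573.5 UMIs in the first and 6840.5 and 4497.5 UMIs in the second. The part of depth and of the makeup of these classes in their ratios was not tested.

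**Figure D4:**
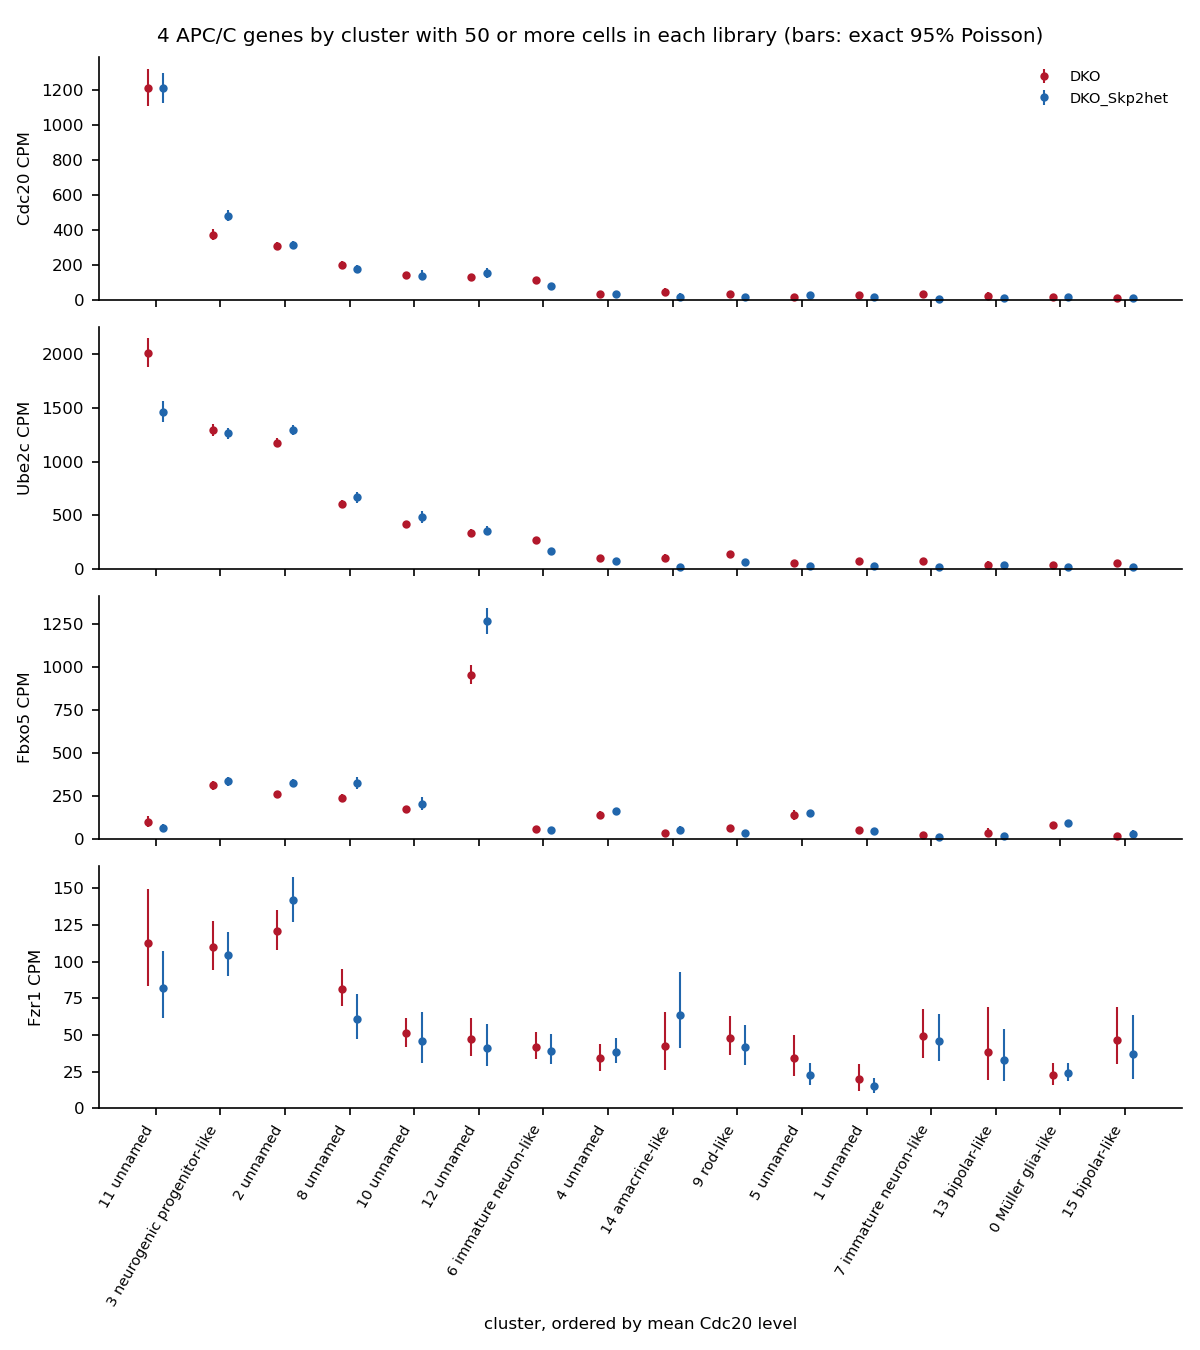
Level (vertical, CPM on linear axes from 0) of Cdc20, Ube2c, Fbxo5 and Fzr1 in each cluster with at least 50 cells per library (horizontal, ordered by mean Cdc20 level), with DKO in red and DKO_Skp2het in blue and exact 95% Poisson intervals. Cluster 11 has the highest Cdc20 and cluster 12 the highest Fbxo5, at 954 and 1266 CPM.

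Across 35 sums (clusters with at least 50 cells, per library), the members fell into sets by the likeness of their log2 levels, as a description of sums that share libraries and cycle makeup. Cdc20, Ube2c and Pttg1 went together, with Pearson r of 0.96 between Cdc20 and Ube2c and 0.94 between Cdc20 and Pttg1. Cdc20 and Fzr1 had an r of 0.73, and Cdc20 and Fbxo5 of 0.63. Anapc11 went with none of these, with r of -0.10 to Cdc20 and -0.06 to Fbxo5. Of 6316 genes, Ccnb1, Cdc25c and Ccnb2 were most like Cdc20 (0.98, 0.97 and 0.96), and Cdc25c, Cenpf and Ccnb2 most like Ube2c. Fbxo5 was most like Rcc1 (0.95), Tex30 and Esco2, and Ube2s most like Spc24 (0.98), Nusap1 and Cdk1. Pttg1 was most like Cks2 (0.97), Ccnb2 and Sapcd2, and Fzr1 most like Arl6ip1 (0.85), Lix1l and Odf2. For the subunits the most alike genes were Pknox1, Cenpf and Plk1 for Cdc27, Topors, Fbxo30 and Pim1 for Cdc16, Zfp422, Rbm3 and Ranbp1 for Anapc5, and Pfn1, Mrps17 and Fam96a for Anapc11.

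Other genes of the pathway were read from lists, over cells with cycle transcripts, where 4.13% of all genes were higher in DKO_Skp2het by over 1.25-fold and 3.09% lower. Of all genes there, 54.4% were above 0, and the median log2 difference was 0.02. Of 21 APC/C substrates, 5 were above 0 and 16 below, with a median of -0.08, and 2 were lower by over 1.25-fold. With both libraries held to cells of at least 3420 UMIs this median was 0.046. The 2 substrates past the fold were Skp2 (0.71) and Cdca3 (0.79), a mitotic entry factor. Skp2 has 1 copy lost by genotype in DKO_Skp2het, and it is counted among the 16 below and the 2 past the fold. Foxm1, a transcription factor of G2 genes, was at 0.83. Of 8 measured checkpoint and inhibitor genes, 2 were above 0, none passed 1.25-fold, and the largest differences were those of Bub1b (0.79, from 35.2 and 28.0 CPM) and Mad2l1 (0.86), which hold Cdc20 inactive until chromosomes are attached, and Ttk (0.92). Of 8 separase and cohesin genes, 1 was above 0 and Sgol1, shugoshin, was lower by over 1.25-fold at 0.79, with Rad21 and Stag1 at 0.84. Of 10 other APC/C subunits, 5 were above 0 and none passed 1.25-fold, with Anapc2 at 0.88, Anapc16 at 1.11 and Cdc26 at 1.10. Usp44, a deubiquitinase that counters APC/C-Cdc20, was the 1 of 11 other ubiquitin genes higher by over 1.25-fold, at 1.86 (1.49 to 2.34), from 123 and 226 UMIs, while Usp37 was at 0.90 and Ube2r2 at 0.93. Of 8 SCF-Skp2 genes, 4 were above 0, with Ccne1, cyclin E1, at 1.27 (1.17 to 1.37), just under the fold with the pseudocount, and Skp1a at 0.89. In quartile 4, 13 of 21 substrates were above 0, with a median of 0.09, beside 56.1% of all genes above 0 and a median of 0.03. In each library 16 of 21 were over 2-fold higher there than in quartile 1, many of which are in the lists that set the positions. Of all genes, 3.51% were over 2-fold higher in DKO and 3.68% in DKO_Skp2het.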

How the data were processed

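Each library is a matrix of raw UMI counts per gene and barcode as deposited by the authors, made with Cell Ranger 2.2.0 against mm10, per the submitters' processing notes. Not given in the sources used here are the barcode filter, the number of animals and the use of strand in counting. Each library's group comes from its genotype label, and no column was left unused (0).

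A barcode was kept with 500 genes or more and no more than 20% of UMIs from mitochondria. Doublets were scored per library with 2 simulated doublets for each cell, and 0.8% per 1000 barcodes were removed from the top (105 in DKO, 216 in DKO_Skp2het). Cells of both libraries were clustered together, without integration, from 2000 variable genes, 30 principal components and 15 neighbours with leidenalg 0.10.2 at resolution 1.0. A cluster was named "X-like" for a mean log2 fold of its type's markers of at least 1.0 with at least 3 markers over 2-fold, limits chosen with the data in view. Of the 10 genes with the highest fold in the cluster, more also had to be markers of that type than of any other. Clusters 2, 11, 12 and 25 met the first limits for their nearest type and stayed unnamed by this last one. A class was described where it had at least 50 cells per library, microglia-like cells excepted, and a position within it with at least 20.

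Counts were summed per library and population. Ratios carry exact intervals from the binomial split of the counts of both libraries, at 95%, which treat UMIs of 1 cell as independent. With 1 library per genotype no test across samples was possible. Gene lists were described over members with at least 50 UMIs. The text names all members, Skp2, of each pathway list the 3 genes with the largest log2 difference over cells with cycle transcripts among those with at least 100 UMIs, and for each member the 3 genes most alike. Genes of clusters 12 and 25 were chosen after their values were seen. The members and lists were chosen with earlier results of these data known.

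Coordinates come from GENCODE release 21 of the mouse annotation (GRCm38, the assembly that mm10 names) and promoters from RefSeq. Analyses used Python 3.11.15 with scikit-learn 1.9.0, numpy 2.4.6, igraph 0.11.9, scipy 1.17.1, matplotlib 3.10.9 and pandas 2.3.3. The ratio and thinning steps were checked on simulated data. Alternatives covered filters, doublets, depth, position borders, clustering resolution and pseudocounts.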

Additional observations from a re-analysis of the deposited data

Results flagged for a closer look

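Several members differed between the libraries in opposite directions at different cycle positions, with each counting interval on its own side of 1. Cdc20 had a ratio of 1.22 (DKO_Skp2het over DKO) in quartile 4 and 0.70 in quartile 2. Ube2c had 1.08 in quartile 4, and 0.70, 0.61 and 0.89 in quartiles 1, 2 and 3. Ube2s had 1.06 in quartile 4 and 0.97 in quartile 3, and Pttg1 had 1.17 in quartile 4 and 0.81 in quartile 2. These opposite directions were not seen in every setting. With quartiles drawn within each library, the quartile 4 ratios were 0.98 for Cdc20, 0.87 for Ube2c, 0.98 for Ube2s and 0.97 for Pttg1. With positions read from all UMIs, the quartile 2 ratios were 1.19 for Cdc20 and 1.00 for Pttg1. Opposite directions were also seen between cell types. Cdc20 had 1.29 in neurogenic progenitor-like cells and 0.59 in immature neuron-like cells. Clusters 2 and 11, with most of their cells in quartile 4 as well, had 1.01 and 1.00. Pttg1 had 1.12 in neurogenic progenitor-like cells, 0.66 in Müller glia-like cells, 0.66 in immature neuron-like cells and 0.40 in rod-like cells. With 1 library per genotype the difference was not tested in any of these cases.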

How the results depend on the processing

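No paired analysis was possible because each genotype has 1 library. All ratios are DKO_Skp2het over DKO. With both libraries held to cells of at least 3420 UMIs, ratios over all kept cells were 1.14 for Cdc20, 0.99 for Fzr1, 1.09 for Fbxo5, 1.03 for Ube2c and 1.02 for Pttg1, with a members' median log2 difference of 0.046. Over cells with cycle transcripts they were 1.19 for Cdc20, 1.01 for Fzr1, 1.14 for Fbxo5, 1.07 for Ube2c, 1.01 for Ube2s and 1.06 for Pttg1, with a median of 0.094 for the members and 0.046 for the APC/C substrates. Without that limit the ratios over these cells were 1.01 for Cdc20, 0.91 for Fzr1, 1.03 for Fbxo5, 0.89 for Ube2c and 0.94 for Ube2s. The members' median was then -0.03, beside 0.02 for all genes, with 5 members above 0 and 5 below. With every cell thinned to 1500 UMIs, ratios over all kept cells were 0.85 for Cdc20, 0.90 for Fbxo5, 0.70 for Ube2c and 0.78 for Pttg1 (median -0.19), and over cells with cycle transcripts 0.88, 0.93, 0.72 and 0.80 (median -0.16). Thinning gives each cell the same weight, while sums weight cells by depth. With pooled position shares the ratios were 1.15 for Cdc20, 1.15 for Fbxo5, 1.02 for Ube2c, 1.02 for Ube2s and 1.06 for Pttg1. Quartiles drawn within each library gave 0.98 for Cdc20, 0.87 for Ube2c, 0.98 for Ube2s and 0.97 for Pttg1 in quartile 4, and 0.76 for Fbxo5 in quartile 2. Positions read from all UMIs gave 1.19 for Cdc20 and 1.00 for Pttg1 in quartile 2. Anapc5 in amacrine-like cells was at 1.00 after thinning. The share of cells with cycle transcripts was 96.3% in DKO and 94.4% in DKO_Skp2het at 3 or more list UMIs, 82.1% and 78.0% at 8 or more, and 99.7% and 98.5% without thinning. The cause of these shifts was not tested. Of the other settings of these main results, 75 moved by less than counting error. Of the settings of single values by position, class or list, 1066 stayed within counting error, 187 moved beyond it and 11 changed direction, each of the 11 with its value above. Among library ratios, 13 in immature neuron-like and 10 in neurogenic progenitor-like cells moved beyond counting error, and 27 and 30 did not. Pooled position shares, the tertiles of quartile 4 and leaving out clusters 12 and 25 were chosen after the data had been seen.

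Depth limits the low members most. Cdc27, Cdc16 and Fzr1 had few UMIs per cell, so that a thinned quartile 4 cell had a Cdc27 UMI in 5.31% of cases in DKO and 6.18% in DKO_Skp2het. Differences between the libraries cannot be told apart from differences between preparations, and summed levels do not separate fewer expressing cells from less RNA per cell.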
